A study of Mus musculus with 4 samples.

Results

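Alveolar type 1 (AT1) cells were picked out of 4 single-cell RNA libraries of mouse lung by a rule on marker RNA, and 168 of 68675 kept barcodes met it. Kept barcodes had 500 genes or more, 1000 or more UMIs (unique molecular identifiers, 1 per captured RNA molecule) and a mitochondrial share of no more than 10%. A member had at least 1 UMI of 3 or more of Ager, Rtkn2, Aqp5, Akap5 and Spock2, and either Rtkn2 or at least 3 UMIs of Ager had to be among them. It had no UMI of Ptprc (the leukocyte antigen CD45) or Cdh5 (VE-cadherin of endothelium), and fewer than 2 of the surfactant-cell genes Lamp3, Slc34a2 and Etv5. The rule found 64 and 36 members in the BPTES libraries (replicates 1 and 2) and 21 and 47 in the DMSO libraries. These 5 marker genes and the 5 excluding genes chose the members, so their levels are given as a description and were not tested as findings.

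All mice were male, of the C57BL/6 strain, and 19 months old when treatment began. For 1 month they received BPTES, a small-molecule inhibitor of glutamine metabolism, or DMSO, its vehicle. Each group had 2 libraries, named here by group and replicate number. After 1 hour of enzymatic digestion (Liberase), lung cells were sorted by CD45, and each library combined 20000 cells without CD45 and 9000 cells with it, from the same tissue. The labels do not say whether the libraries of a group came from separate mice, so p-values measure the spread between these libraries, which may be technical. The sort and the mixing set the share of AT1 cells relative to leukocytes, and shares are therefore given among Ptprc-zero barcodes.

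AT1 cells are very thin, flat epithelial cells that cover most of the gas-exchange surface of the lung. They lie on a basement membrane shared with the capillary endothelium, move water and ions across the air-blood barrier and send growth factors such as VEGF-A to the capillaries. Alveolar type 2 (AT2) cells, which make surfactant, can renew them through a transitional state marked by keratins and p53 targets. The transcription factors NKX2-1 and TEAD, and the co-activators YAP and TAZ that act with TEAD, are known to hold the AT1 state.

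Promoters of genes enriched in the members were searched for letters bound by 2 of these factors. Of the 34 genes that were over 10-fold higher in members than in any other class (described below), 24 had a promoter in the RefSeq table of build GRCm38.p6, a window of 300 bases from 250 before to 50 after the start site. CATTCC, the core of the TEAD motif, was found on either strand in 4 of the 24 (16.7%), beside 14.6% of all 27025 promoters of this length. CTCAAG, a core of NKX2-1 sites, was found in 5 of 24 (20.8%), beside 16.2% of all promoters. Neither share stood far from that of all promoters, and the 2 motifs share no overlap by their letters. A match is a description of the sequence and not a bound site. The 250 bases before the start are shown for a gene of each kind, chosen after the search: Hopx, a homeodomain protein that marks AT1 cells, at chr5:77115124-77115373 on the minus strand, and Ankrd1, a classical target of YAP and TEAD, at chr19:36119845-36120094 on the minus strand. Capitals mark the motif, which lies 112 bases before the start in Hopx (as CTTGAG, read on the other strand) and 210 and 123 bases before it in Ankrd1 (as GGAATG, read on the other strand).
Hopx promoter: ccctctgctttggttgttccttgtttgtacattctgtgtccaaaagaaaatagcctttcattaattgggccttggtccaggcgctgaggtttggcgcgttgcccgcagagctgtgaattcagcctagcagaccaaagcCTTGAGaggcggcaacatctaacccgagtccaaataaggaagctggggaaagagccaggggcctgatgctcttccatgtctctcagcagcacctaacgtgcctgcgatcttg
Ankrd1 promoter: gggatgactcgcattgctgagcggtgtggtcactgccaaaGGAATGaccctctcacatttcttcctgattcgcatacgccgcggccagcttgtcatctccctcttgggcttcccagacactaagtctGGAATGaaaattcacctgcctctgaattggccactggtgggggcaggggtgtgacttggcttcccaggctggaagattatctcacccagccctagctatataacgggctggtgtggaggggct
In members, Hopx stood at 6055 and 3876 CPM (UMIs of the gene per 1000000 UMIs of all members of a library) in BPTES and 5814 and 4235 CPM in DMSO. Ankrd1 stood at 86.0 and 118 CPM in BPTES and 95.8 and 106 CPM in DMSO. Both genes were present in all 4 libraries, with overlapping groups.

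Whole libraries held 260346570 to 342107092 UMIs in 16440 to 21986 barcodes, of which 91.0 to 93.5% were kept, at a median of 14284 to 16184 UMIs. Pairs of libraries shared 65 to 104 kept barcodes. The summed members held 744567 and 356272 UMIs in BPTES and 167002 and 603078 UMIs in DMSO, so DMSO replicate 1 is the least precise library for gene levels in the summed members.

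Of the rule genes, Ager stood at 11522 and 9931 CPM in BPTES and 12305 and 8163 CPM in DMSO. Rtkn2 stood at 3168 and 2874 CPM and at 4347 and 2287 CPM. Akap5 stood at 1117 and 1050 CPM and at 1503 and 965 CPM, and Spock2, a secreted proteoglycan, at 1062 and 966 CPM and at 557 and 798 CPM. Summed over the 5 genes, members had 13673 to 20455 CPM and AT2 cells 859 to 952 CPM.

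The marker genes outside the rule upheld the label for most members. Hopx had a UMI in all members but 1. After each member was thinned to 1000 UMIs, which leaves none out, Hopx was seen in 89.1, 94.4, 100 and 91.5% of members (BPTES 1 and 2, DMSO 1 and 2), beside 0.833 to 4.92% of AT2 cells and 14.8 to 19.2% of endothelial cells. Clic5, an intracellular chloride channel protein of AT1 cells and capillary endothelium, was seen in 80.8 to 100% of thinned members, 2.20 to 4.92% of AT2 cells and 39.2 to 46.8% of endothelial cells. Over 20 AT1 genes outside the rule, the summed level was 45543 and 36281 CPM in BPTES and 46520 and 32478 CPM in DMSO, and in AT2 cells it was 2515 to 2814 CPM.

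A minority of members carried RNA of a further cell type. At least 2 genes of 1 of 5 other lineages had a UMI in 31 of 168 members (10, 6, 4 and 11 per library), called mixed barcodes here. This flag was not corrected for depth and fell more often on deep members. Without mixed barcodes 99 of 107 members under 6000 UMIs remained, and 35 of 56 with at least 10000. Fibroblast and mural RNA was the main kind: 15 members (3, 3, 1 and 8) had UMIs of at least 4 of the 6 genes Col1a1, Col1a2, Col3a1, Pdgfra, Pdgfrb and Acta2. In 13 of these 15 the 5 rule genes made up under 0.5% of UMIs, whereas the median member had 1.49%. These 13 go against the AT1 label by that measure, and they held 9.86, 12.2, 5.94 and 32.9% of the members' UMIs per library. The other 2, with 52195 UMIs in BPTES replicate 2 and 53719 UMIs in DMSO replicate 2, had 0.977 and 0.903% and 304 and 273 UMIs of Ager. The 15 together held 9.86, 26.9, 5.94 and 41.8% of the members' UMIs. Summed over 15 fibroblast and mural marker genes, members had 1242 and 4974 CPM in BPTES and 1341 and 6981 CPM in DMSO, so replicate 2 of each group was high. Many treatment results below are given without the mixed barcodes too.

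**Figure D1:**
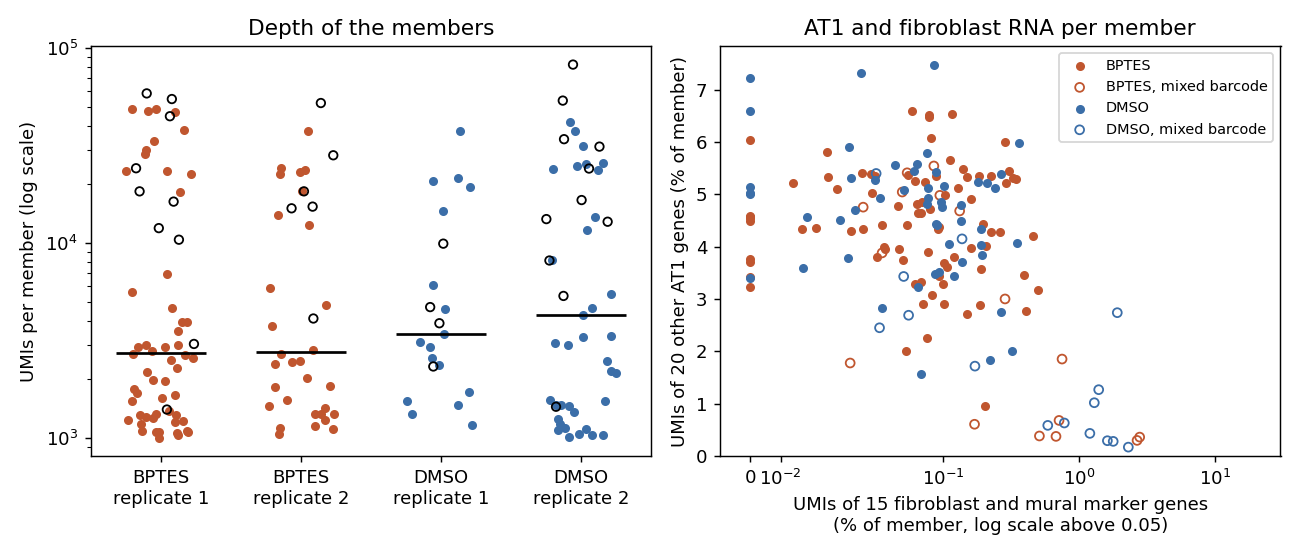
Left, UMIs per member (log scale) by library, each point 1 member, open circles mixed barcodes, bars the medians of 2738, 2768, 3425 and 4272 UMIs. Right, UMIs of 20 AT1 genes outside the rule as percent of each member against UMIs of 15 fibroblast and mural markers (percent, linear below 0.05 and logarithmic above). The members at the lower right are mixed barcodes with little AT1 RNA.

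Barcodes just inside and just outside the rule were described by their marker levels, with no test. Members with exactly 3 markers (38 of 168) had 1795, 1801, 5548 and 447 CPM of Ager and 1956, 2765, 6829 and 749.5 CPM of Hopx. These are levels of summed UMIs, in which deep mixed barcodes weigh most. In DMSO replicate 2, where their median was 1546 UMIs, a mixed barcode had 82187 UMIs and 1 UMI of Ager. In BPTES replicates 1 and 2, with medians of 1697 and 1424 UMIs, mixed barcodes of 44663 and 28164 UMIs had 19 and 3 UMIs of Ager. Barcodes with only 2 markers but otherwise like members (67) had 56.5 to 224 CPM of Ager and 63.1 to 340.0 CPM of Hopx. A further 255 barcodes met the rule except that they had 2 or more AT2 genes, and their Sftpc, the surfactant protein C gene, stood at 153260 to 163090 CPM. Another 151 (44, 38, 12 and 57 per library) met the rule except for a UMI of Ptprc or Cdh5. They had 2230 to 4341 CPM of Ager and 1708 to 2656 CPM of Hopx, and are not in the member counts or shares. Of the members, 50 had 4 markers and 80 had all 5.

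Members were shallow for this lung. Their medians were 2738, 2768, 3425 and 4272 UMIs, beside 14284 to 16184 over all kept barcodes, whereas AT2 cells by the marker rule had medians of 38770 to 43850 UMIs. The 151 barcodes left out only for a UMI of Ptprc or Cdh5 had medians of 9224 to 18830 UMIs. The depths fell into a low and a high group: 107 members had under 6000 UMIs, 5 had 6000 to 10000, and 56 had at least 10000 and held 85.2% of all member UMIs. Members under and over this gap were compared after mixed barcodes were left out (99 and 35 members), with the boundaries chosen after the depths were seen. These values are a description with no test.

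The shallow and deep members differed in the level of 2 nuclear RNAs. Malat1, a long noncoding RNA kept in the nucleus, stood at 27980, 13040, 49900 and 19790 CPM in the shallow members and at 80770, 88390, 78150 and 88770 CPM in the deep ones (BPTES 1 and 2, DMSO 1 and 2). It was lower in the shallow members in 4 of 4 libraries, at 0.147 to 0.638 of the deep level. In fibroblasts split at the same depths it was also lower in 4 of 4 libraries (0.427 to 0.853), in endothelial cells the ratio was 0.806 to 1.07, and in AT2 cells, with 28 shallow cells in all, 1.10 to 2.68. Neat1, another nuclear RNA, was also lower in 4 of 4 libraries (764 ± 342 against 1510 ± 187 CPM, SD, n = 4 libraries). Its ratio of shallow to deep was 0.609 to 1.14 in fibroblasts, 1.03 to 1.17 in endothelial cells and 1.74 to 10.8 in AT2 cells. Ribosomal protein genes made up 3.85 ± 0.663% of UMIs in shallow and 1.57 ± 0.0978% in deep members, 5.41 ± 1.18% and 3.57 ± 0.351% in endothelial cells, 8.49 ± 1.63% and 4.07 ± 0.318% in fibroblasts and 3.27 ± 1.66% and 6.03 ± 0.561% in AT2 cells (SD, n = 4). The shallow cells had the higher share in 4 of 4 libraries for the first 3 classes and the lower share in 4 of 4 for AT2 cells. Mitochondrial genes made up 2.41 ± 0.919% in shallow and 1.31 ± 0.225% in deep members (SD, n = 4), and were higher in the shallow members in 3 of 4 libraries. The ratio of shallow to deep was 0.991 to 2.31 in members, 1.97 to 2.17 in endothelial cells, 1.51 to 1.81 in fibroblasts and 0.567 to 1.93 in AT2 cells.

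AT1 genes did not all differ in the same way between the shallow and deep members. Ager, the receptor for advanced glycation end products, stood at 8650 ± 2050 CPM in shallow and 14200 ± 1070 CPM in deep members. Aqp5, a water channel, stood at 731 ± 251 and 2390 ± 303 CPM, Vegfa, the growth factor of capillaries, at 1800 ± 462 and 4400 ± 497 CPM, and Col4a3, a basement membrane collagen chain, at 1610 ± 388 and 2940 ± 431 CPM (SD, n = 4). All 4 genes were lower in the shallow members in every library. Hopx stood at 7750 ± 1270 and 5590 ± 1040 CPM and Akap5, an anchor for protein kinase A, at 2520 ± 549 and 1130 ± 130 CPM (SD, n = 4). Both were higher in the shallow members in every library, but Hopx barely so in BPTES replicate 1 (6088 against 6023 CPM). For Akap5 the ratio of shallow to deep was 3.26 to 5.63 in endothelial cells and 0 to 4.69 in fibroblasts. Rtkn2, Lama3 and Igfbp2 were lower in the shallow members in 3 of 4 libraries, and Spock2 and Cav1 in 2 of 4. The ferritin gene Fth1 was 1.88 to 5.76 times as high in the shallow members, in fibroblasts 2.33 to 4.20 times, in endothelial cells 1.17 to 1.57 times and in AT2 cells 0.127 to 4.11 times (lower in 3 of 4 libraries). Ager, Rtkn2, Aqp5, Akap5 and Spock2 are rule genes, so the rule itself sets part of their level in barcodes with few UMIs.

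**Figure D2:**
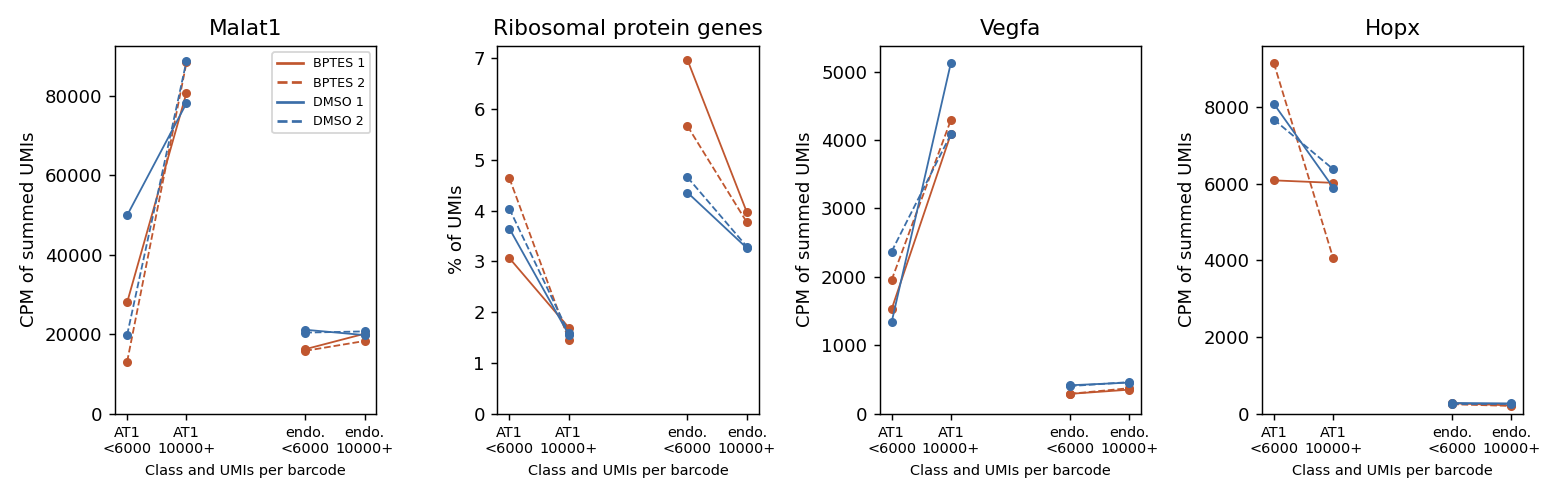
Levels in barcodes under 6000 UMIs and with at least 10000 UMIs, for AT1 members without mixed barcodes and for endothelial cells (endo.), each line 1 library. Malat1, Vegfa and Hopx are in CPM and ribosomal protein genes in percent of UMIs. Malat1 and Vegfa are lower in shallow AT1 members in all 4 libraries, and the endothelial lines are flatter for both. Fibroblasts, which are not drawn, also had lower values of both in 4 of 4 libraries.

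RNA of AT2 and club cells was seen in members at a low level. After thinning to 1000 UMIs, Sftpc was seen in 67.2, 47.2, 23.8 and 46.8% of members (98.4, 91.7, 66.7 and 95.7% with no thinning), and in fibroblasts, which do not make it, in 23.4, 17.1, 6.83 and 13.5%. Its order over the 4 libraries was similar in both classes, with DMSO replicate 1 lowest. Scgb1a1, the club cell secretory protein, was seen in 23.4, 22.2, 0.00 and 17.0% of thinned members and in 6.77, 4.69, 2.07 and 7.63% of fibroblasts. In CPM, Sftpc stood at 461, 283, 4054 and 196, but in DMSO replicate 1 a single member with 658 UMIs held 97.2% of it.

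The genes that set members apart from the other classes were named by their ratio to the highest of the 9 other marker-rule classes, with no test, since the same cells were chosen by markers. Outside the rule, 3918 genes had at least 50 CPM in members. Of these, 905 were higher in members than in every other class, 384 had all 4 member libraries above all libraries of the other classes, and 34 were over 10-fold higher. The highest ratio was that of Slc22a22, a solute carrier of the organic anion transporter family, at 231 and 286 CPM in BPTES and 192 and 84.6 CPM in DMSO, beside 0.312 CPM in fibroblasts, the next class. Popdc3, a Popeye-domain membrane protein, stood at 156, 115, 138 and 86.2 CPM and at 1.39 CPM in AT2 cells. Bdnf, a neurotrophin, stood at 540, 469, 569 and 318 CPM and at 10.8 CPM in mesothelial cells, the next class. These 3 genes were higher in every member library than in every library of the other classes.

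Further genes among the first 15 of this ranking encode matrix, adhesion, transport and signalling proteins. Lama3, a laminin chain of epithelial basement membranes, stood at 1122, 1010.5, 874 and 706 CPM and at 18.3 CPM in AT2 cells. Itgb6, the beta chain of an integrin that activates TGF-beta, stood at 701, 775, 665 and 575 CPM and at 15.01 CPM in ciliated cells. Scnn1g, a subunit of the epithelial sodium channel, stood at 571, 620.3, 713 and 458 CPM and at 7.72 CPM in secretory cells. Wnt3a, a Wnt ligand, was sparser at 79.2, 53.3, 144 and 77.9 CPM, and AT2 cells had 3.67 CPM. Flrt3 (a cell-surface guidance and adhesion protein, 551 ± 90.8 CPM), Ndnf (a secreted neurotrophic factor, 1309 ± 408 CPM), Sh3rf2 (an E3 ligase, 306 ± 98.2 CPM) and Igfbp2 (a binding protein of insulin-like growth factors, 2320 ± 1097 CPM) completed the named genes with known products besides Col4a3 (SD, n = 4). The unnamed loci AC133498.1, Gm1968 and 2210011C24Rik were also among the first 15, at 174 ± 66.4, 58.5 ± 29.6 and 220.3 ± 63.0 CPM. Cdkn2b, the p15 inhibitor of the cell cycle, was among the 34 genes over 10-fold (168 CPM in members, 15.2 CPM in ciliated cells), whereas its neighbour Cdkn2a (p16) had 2 UMIs in BPTES replicate 1 and none in the other 3 libraries.

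**Figure D3:**
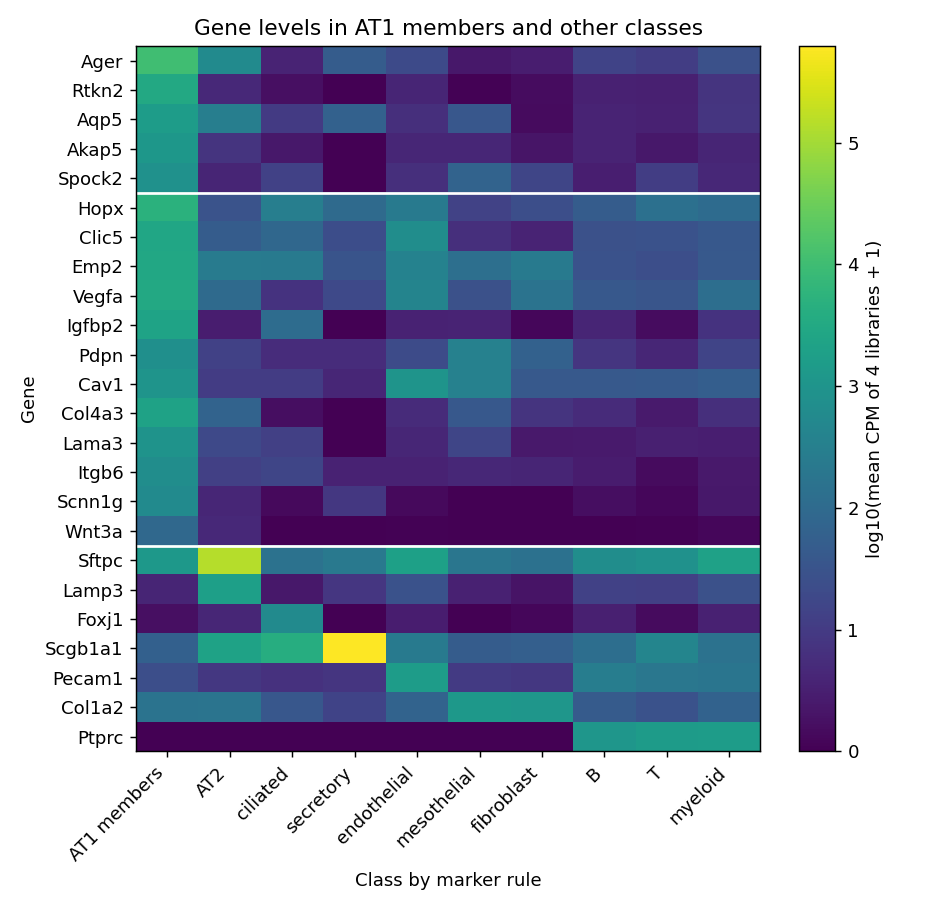
Mean CPM over 4 libraries, as log10(mean CPM + 1), of 24 genes in AT1 members and 9 other classes. The first block holds the 5 rule genes, the second AT1 genes outside the rule and the third markers of other classes. AT1 members are brightest for the first and second blocks, with Cav1 at a like level in endothelial cells.

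The first question of the design was whether BPTES changed how many AT1 cells were found. Members made up 0.603% (95% exact binomial interval 0.465 to 0.769) and 0.347% (0.243 to 0.479) of Ptprc-zero barcodes in BPTES, and 0.215% (0.133 to 0.329) and 0.371% (0.273 to 0.494) in DMSO. The means were 0.475 ± 0.181% and 0.293 ± 0.111% (SD, n = 2), a log2 ratio of 0.70, with a p of 0.667 in a two-sided exact permutation test over libraries. The smallest p that 2 against 2 libraries allow is 0.333. BPTES replicate 1 was the highest library, and BPTES replicate 2 lay below DMSO replicate 2, so the groups overlapped. Without mixed barcodes the shares were 0.509 and 0.289% in BPTES and 0.174 and 0.285% in DMSO, and with at least 4 of the 5 markers required 0.462 and 0.279% and 0.184 and 0.269%. In both of these the groups did not overlap, BPTES replicate 2 and DMSO replicate 2 lay close together, and the exact permutation p was 0.333. Intervals cover counting error only.

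Relative to AT2 cells the direction was the other way. There were 16.2 and 9.33 members per 100 AT2 cells in BPTES and 17.5 and 20.7 in DMSO, means of 12.7 ± 4.83 and 19.1 ± 2.27 (SD, n = 2) and a log2 ratio of -0.58. The groups did not overlap, and the two-sided exact permutation p was 0.333, the smallest this design can give. AT2 cells made up 3.73 and 3.72% of Ptprc-zero barcodes in BPTES and 1.23 and 1.79% in DMSO, so the denominator differed between the groups too. Leaving out 1 library moved the log2 ratio of the share to between 0.24 and 1.14, and that of the ratio to AT2 cells to between -1.03 and -0.24.

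**Figure D4:**
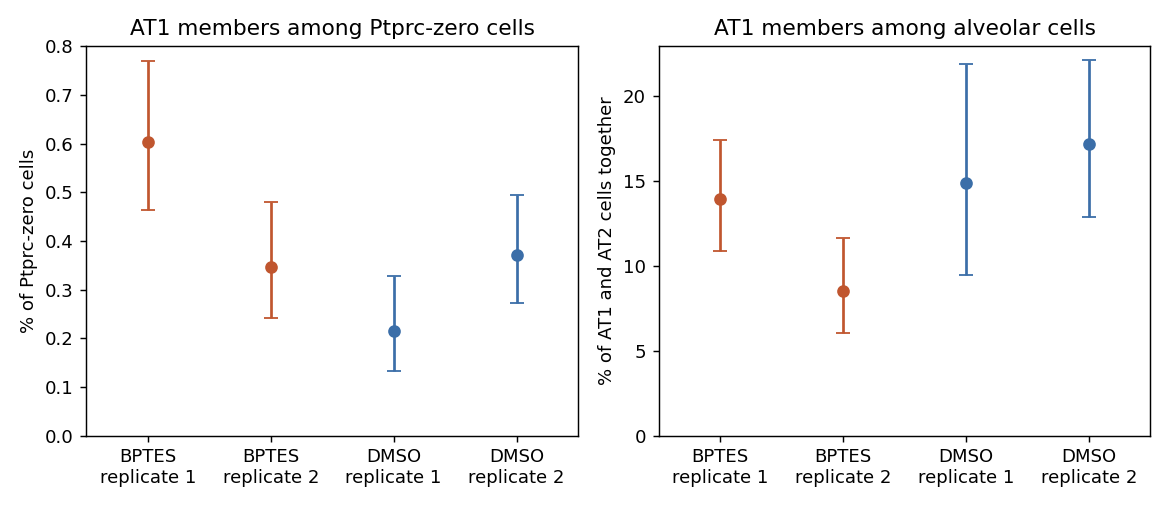
Left, AT1 members as percent of Ptprc-zero barcodes, and right, as percent of AT1 and AT2 cells together, each point 1 library with its 95% exact binomial interval. On the left BPTES replicate 1 is highest and the groups overlap. On the right both BPTES points lie below both DMSO points, and the intervals overlap except between BPTES replicate 2 and DMSO replicate 2.

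The second question was which genes differed between BPTES and DMSO within AT1 members. UMIs were summed per library, and 7110 genes passed the filter on low counts. None was called at an adjusted p under 0.05 by edgeR's quasi-likelihood test with Benjamini-Hochberg adjustment (0 of 7110, percent called 0.00), and none by DESeq2. The smallest adjusted p in edgeR was 0.9995. With no filter on low counts edgeR called 165 genes (29 higher, 136 lower in BPTES). At an unadjusted p under 0.05 there were 66 genes with higher values in BPTES (0.928%) and 108 with lower values (1.52%), 174 in all (2.45%), and DESeq2 gave 41 genes in all at that level. Every gene below is therefore given by its values and was not called. For the 476 genes with at least 300 CPM the median standard error was 0.30 on the log2 scale and the median absolute log2 fold change 0.19, so typical differences were smaller than their error.

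None of the 20 genes of AT1 identity outside the rule was called. All 20 were tested, and 2 had higher values in BPTES at an unadjusted p under 0.05, beside 0.928% of all genes. The median log2 fold change of BPTES over DMSO was 0.00, and that of all 7110 genes was -0.01. Of the 20, 11 were above 0, and without mixed barcodes 5 were, with a median of -0.13. In all members both BPTES libraries lay above both DMSO libraries for 2 of the 20 (17.7% of all genes tested) and below them for 0 (13.6%). Without mixed barcodes they lay above for 3 (19.4% of the 4885 genes tested) and below for 8 (16.6%). Hopx had a log2 fold change of -0.05 (SE 0.36), Clic5 of 0.00 (SE 0.37) and Emp2, a small membrane protein of the air-blood barrier, of 0.09 (SE 0.31), and without mixed barcodes these were -0.23, -0.12 and -0.05. Lmo7, a junction-linked LIM protein, stood at 2923 and 2857 CPM in BPTES and 3006 and 2184 CPM in DMSO. Cldn18, the tight-junction claudin of alveoli, stood at 2744 and 2268 CPM and at 3617 and 2234 CPM. For Clic5, Emp2, Lmo7 and Cldn18, DMSO replicate 2, the library with the most fibroblast RNA, was the lowest of the 4. Without mixed barcodes it was the lowest for none of these 4 genes. It then stood at 3083 CPM of Clic5 and 3454 CPM of Cldn18, where BPTES replicate 2 was lowest at 2906 and 2699.5 CPM. It stood at 3395 CPM of Lmo7, where DMSO replicate 1 was lowest at 3236 CPM, and at 3760 CPM of Emp2, the highest of the 4.

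Of these 20 genes Igfbp2 had the log2 fold change farthest from 0. It stood at 3508 and 2841 CPM in BPTES and 982 and 1948 CPM in DMSO, a log2 fold change of 1.09 (SE 0.39, unadjusted p 0.031, adjusted p 0.9995 by edgeR). Both BPTES libraries lay above both DMSO libraries, as they did for 17.7% of all genes tested. Without mixed barcodes the levels were 4207 and 4148 CPM in BPTES and 1108 and 2979 CPM in DMSO, a log2 fold change of 1.00. The 2 richest members held 38.3 and 45.1% of its UMIs in BPTES and 67.7 and 29.5% in DMSO. After thinning to 1000 UMIs, Igfbp2 was seen in 54.7 and 72.2% of members in BPTES and in 33.3 and 66.0% in DMSO, and the groups overlapped. At 3000 UMIs the shares were 81.5 and 88.2% and 58.3 and 78.6%, which do not overlap, and at 1500 UMIs and with no thinning they overlapped. Only 27 and 17 members in BPTES and 12 and 28 in DMSO had the 3000 UMIs needed to be counted at that depth. With the thinned UMIs summed, its log2 fold change was 0.61. Ndnf stood at 1800 and 1474 CPM in BPTES and 886 and 1078 CPM in DMSO, a log2 fold change of 0.71 (SE 0.26), and of 0.41 without mixed barcodes.

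Transcription factors and co-activators of the AT1 state showed no called difference among 19 tested of 24. Nkx2-1, the lung lineage factor, stood at 309 and 250 CPM in BPTES and 311 and 182 CPM in DMSO. Tead1, a DNA-binding partner of YAP and TAZ, stood at 1041 and 960 CPM and at 1533 and 947 CPM. Wwtr1, which encodes TAZ, stood at 181 and 199 CPM and at 228 and 133 CPM, and Gata6, a lung endoderm factor, at 265 and 255 CPM and at 263 and 174 CPM. Foxp1 and Foxp2, forkhead repressors, had log2 fold changes of 0.41 (SE 0.38) and -0.54 (SE 0.56). Without mixed barcodes the log2 fold change of Wwtr1 went from 0.08 to 0.47, that of Nkx2-1 from 0.17 to 0.02 and that of Gata6 from 0.24 to 0.16. Of 14 targets of YAP and TAZ, 13 were tested with a median log2 fold change of -0.03, and of 0.13 without mixed barcodes.

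Basement membrane genes had a median log2 fold change of 0.13 over 23 tested of 25. Col4a1 and Col4a2, the collagen chains also made by endothelium, stood at 998 and 884 CPM and 946 and 966 CPM in BPTES, and at 497 and 788 CPM and 539 and 773 CPM in DMSO. Col4a3 and Col4a4, the chains that assemble with that of Col4a5, stood at 2078 and 1959 CPM and 1879 and 1782 CPM in BPTES. In DMSO, Col4a3 stood at 3030 and 1509 CPM and Col4a4 at 3431 and 1587 CPM. The laminin chains Lama3 and Lamb3 had log2 fold changes of 0.41 (SE 0.26) and 0.58 (SE 0.30), and both had 0.33 without mixed barcodes. In each of them, both BPTES libraries lay above both DMSO libraries. Such an order in this direction was seen for 10 of the 23 genes, Col4a1, Col4a2, Itga3 and Agrn among them, and for 17.7% of all genes tested. Without mixed barcodes it was seen for 7 of 20 (19.4% of all genes tested), and Col4a2 overlapped at 892 and 1282.5 CPM in BPTES and 575 and 956 CPM in DMSO. Col4a4 then lay lower in both BPTES libraries, at 2193 and 2377 CPM against 3742 and 2608 CPM (log2 fold change -0.49, unadjusted p 0.043, not called by edgeR). Itgb1, the shared integrin beta chain, and Dag1, dystroglycan, had log2 fold changes of 0.20 (SE 0.25) and 0.13 (SE 0.27), and without mixed barcodes of 0.25 and 0.00.

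Signals from AT1 cells to their neighbours were tested for 16 of 24 genes, with a median log2 fold change of -0.21, and of -0.26 without mixed barcodes. At an unadjusted p under 0.05 in edgeR, 1 had higher values in BPTES (Tgfb2), beside 0.928% of all genes tested. Lower values at that level were seen for 2 (Sema3c, given below, and Cxcl12), beside 1.52% of all genes tested. Vegfa stood at 3291 and 2970 CPM in BPTES and 3904 and 2557 CPM in DMSO. Pdgfa, a ligand for fibroblasts, had a log2 fold change of -0.02 (SE 0.31), and of -0.28 without mixed barcodes. Sema3a and Sema3e, guidance cues that act on vessels and axons, had -0.42 (SE 0.30) and -0.14 (SE 0.28), and Fgf1 -0.41 (SE 0.36). Tgfb2 stood at 270 and 225 CPM in BPTES and 138 and 133 CPM in DMSO, a log2 fold change of 0.85 (SE 0.28, unadjusted p 0.024, not called by edgeR), and of 0.70 without mixed barcodes. Cxcl12, a chemokine, stood at 8.06 and 28.1 CPM in BPTES and 23.95 and 156 CPM in DMSO, which overlap, with a log2 fold change of -2.63 (SE 0.92). Without mixed barcodes it stood at 7.98 and 4.48 CPM and at 20.5 and 6.25 CPM. Hhip, a hedgehog inhibitor, stood at 0.00 and 550 CPM in BPTES and 545 and 6.63 CPM in DMSO, so 1 library of each group held nearly all of it, and without mixed barcodes it stood at 0.00 and 0.00 CPM in BPTES and 0.00 and 3.12 CPM in DMSO.

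Barrier and fluid transport genes without Aqp5, which is a rule gene, had a median log2 fold change of 0.06 over 17 tested of 19, and of -0.04 over the 13 tested without mixed barcodes. The sodium channel subunits Scnn1a, Scnn1b and Scnn1g had log2 fold changes of 0.32 (SE 0.27), -0.07 (SE 0.33) and 0.01 (SE 0.31), and without mixed barcodes of 0.20, -0.32 and -0.10. Aqp5, given as a description, stood at 1733 and 1465 CPM in BPTES and 1743 and 1461 CPM in DMSO. The junction scaffold Tjp1 had -0.22 (SE 0.41). Cldn7 stood at 184 and 177 CPM in BPTES and 108 and 103 CPM in DMSO, a log2 fold change of 0.76 (SE 0.28), and of 0.46 without mixed barcodes.

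Genes of the transitional epithelial state had mostly higher values in BPTES, and none was called. Of 20 genes 16 were tested, and 15 of these had a log2 fold change above 0, as did 48.7% of all genes tested. Their median was 0.45, and 0.29 over the 13 genes tested without mixed barcodes, of which 11 were above 0. S100a6, a calcium-binding protein, stood at 2870 and 2380 CPM in BPTES and 1832 and 1809 CPM in DMSO, a log2 fold change of 0.50, and of 0.33 without mixed barcodes, where the groups overlapped. Lgals3, a galectin, stood at 486 and 300.3 CPM and at 246 and 222 CPM, a log2 fold change of 0.73, and of 0.40 without mixed barcodes, where the groups overlapped too. With members thinned to 1000 UMIs the log2 fold change was 0.12 for S100a6 and -0.29 for Lgals3, so the direction of Lgals3 turned. Tnfrsf12a, the TWEAK receptor, stood at 220.3 and 216 CPM and at 126 and 114 CPM, a log2 fold change of 0.84 (SE 0.28), and of 0.58 without mixed barcodes. Clu, a secreted chaperone, stood at 121 and 98.2 CPM and at 29.9 and 46.4 CPM, and its log2 fold change of 1.42 (SE 0.36) was 0.65 without mixed barcodes, where the groups overlapped (140 and 44.8 against 34.2 and 81.2 CPM). Both BPTES libraries lay above both DMSO libraries for 9 of the 16 genes, beside 17.7% of all genes tested, and without mixed barcodes for 3 of 13, near the 19.4% of all genes tested.

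The keratins of that state were also not called. Krt8 had a log2 fold change of 0.39 (SE 0.26) and Krt19 of 0.53 (SE 0.35), and without mixed barcodes these were 0.06 and 0.09. With members thinned to 1000 UMIs Krt19 had -0.28, so its direction turned. Krt7 and Itgb6 had 0.06 (SE 0.31) and 0.23 (SE 0.26), and Hbegf, an EGF-receptor ligand, had 0.19 (SE 0.41). Without mixed barcodes these 3 had -0.15, 0.17 and 0.16. Sfn, a p53 target of the 14-3-3 family, stood at 60.4 and 95.4 CPM in BPTES and 0.00 and 26.5 CPM in DMSO, a log2 fold change of 2.03 (SE 0.76), and of 1.83 without mixed barcodes. Seen after thinning to 1000 UMIs, it was in 4.69 and 8.33% of members in BPTES and 0.00 and 6.38% in DMSO, and the groups overlapped. At 1500 UMIs the shares were 11.1 and 15.4% against 0.00 and 3.03%, and at 3000 UMIs 18.5 and 29.4% against 0.00 and 0.00%. With no thinning they were 21.9 and 27.8% against 0.00 and 19.1%, and none of these overlap. Members with fewer UMIs than the depth are left out. So 45, 26, 18 and 33 members (BPTES 1 and 2, DMSO 1 and 2) were counted at 1500 UMIs, and 27, 17, 12 and 28 at 3000 UMIs. Cldn4, a claudin of injured alveoli, had no UMI in any member of the 4 libraries.

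Glutamine genes, those closest to the pathway BPTES acts on, had a median log2 fold change of -0.03 over 14 tested of 27, and of 0.14 without mixed barcodes. Gls2 had 1 UMI in all 4 libraries together. Glul, glutamine synthetase, stood at 115.5 and 64.6 CPM in BPTES and 102 and 103 CPM in DMSO. The amino acid transporters Slc38a2, Slc3a2 and Slc6a14 had log2 fold changes of 0.52 (SE 0.41), 0.09 (SE 0.32) and -0.44 (SE 0.40), Glud1, glutamate dehydrogenase, had 0.30 (SE 0.30), and Ctps, CTP synthase, had -0.35 (SE 0.31). Without mixed barcodes Glul went from -0.19 to 0.15, Slc3a2 to 0.21 and Glud1 to 0.14. Slc38a2, Slc6a14 and Ctps then had 0.63, -0.58 and -0.46, each farther from 0 than in all members, and none was called.

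Senescence genes had a median log2 fold change of -0.05 over 20 tested of 28, with 8 above and 12 below 0, and of 0.07 over the 10 tested without mixed barcodes. At an unadjusted p under 0.05 in edgeR, 3 had higher values in BPTES (Igfbp2, Cdkn1a and Lmna), beside 0.928% of all genes tested. Lower values at that level were seen for 3 (Igfbp3, Igfbp4 and Igfbp5, further binding proteins of insulin-like growth factors), beside 1.52% of all genes tested. Igfbp4 stood at 6.72 and 36.5 CPM in BPTES and 35.9 and 298 CPM in DMSO, and Igfbp5 at 1.34 and 16.8 CPM and at 23.95 and 111 CPM, with log2 fold changes of -3.21 (SE 1.11) and -3.37 (SE 1.08). Both were highest in DMSO replicate 2, and without mixed barcodes neither was above 8.97 CPM in any library. Cdkn1a (p21) stood at 75.2 and 95.4 CPM in BPTES and 29.9 and 49.7 CPM in DMSO, a log2 fold change of 0.98 (SE 0.38, unadjusted p 0.045, not called by edgeR). It was seen in 15.6 and 22.2% of members in BPTES and in 14.3 and 19.1% in DMSO with no thinning, shares that overlap, and without mixed barcodes, too sparse to test, it stood at 23.9 and 85.2 CPM and at 6.84 and 12.5 CPM. Cdkn2b stood at 191 and 174 CPM and at 168 and 138 CPM, a log2 fold change of 0.25, and of -0.10 without mixed barcodes. Lmna, lamin A and C, stood at 230 and 182 CPM and at 95.8 and 116 CPM, a log2 fold change of 0.92 (SE 0.30), and of 0.67 without mixed barcodes. Igfbp6, Igfbp7, Timp2 and Hmgb1 had log2 fold changes of -0.34, 0.22, -0.04 and -0.07, and without mixed barcodes of -0.45, -0.01, 0.18 and -0.09.

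Among genes of any kind, the 8 with the smallest unadjusted p in each direction included several that other cell types hold at higher levels. Igfbp3 stood at 4.03 and 2.81 CPM in BPTES and 77.8 and 58.0 CPM in DMSO, a log2 fold change of -4.13 (SE 0.54, adjusted p 0.9995 by edgeR), from 3 and 1 UMIs in BPTES and 13 and 35 UMIs in DMSO. Without mixed barcodes it stood at 5.99 and 0.00 CPM in BPTES and 6.84 and 6.25 CPM in DMSO. Ly6a, an antigen of endothelium, stood at 24.2 and 5.61 CPM in BPTES and 83.8 and 192 CPM in DMSO, and without mixed barcodes at 25.9 and 4.48 CPM and at 6.84 and 37.5 CPM, which overlap. Sema3c and Adamts1 had log2 fold changes of -2.23 and -2.18, and members held 2.32 and 19.3% of their level in endothelial cells. Without mixed barcodes Sema3c stood at 19.955 and 13.5 CPM in BPTES and 13.7 and 28.1 CPM in DMSO, and Adamts1 at 2.00 and 4.48 CPM and at 13.7 and 0.00 CPM, so both overlapped. Summed over 16 endothelial markers, members had 180.0 and 112 CPM in BPTES and 341 and 305 CPM in DMSO, and none of the 16 could be tested without mixed barcodes. The part of this RNA in the lower values was not tested.

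The remaining genes of that selection on the lower side were Tcf7l1, a Wnt-pathway repressor, Sned1, a matrix protein, Fchsd2, a membrane-traffic protein, and Casc4, with log2 fold changes of -2.41, -1.81, -1.65 and -1.27. Without mixed barcodes Tcf7l1 stood at 11.97 and 4.48 CPM in BPTES and 75.2 and 3.12 CPM in DMSO, and Casc4 at 23.9 and 26.9 CPM and at 68.4 and 24.985 CPM, so both overlapped. Fchsd2 then stood at 18.0 and 17.9 CPM and at 103 and 21.9 CPM, which do not overlap. Sned1 was the only one of the 8 that could be tested without mixed barcodes, with -0.87, and its groups then overlapped (43.9 and 13.5 CPM in BPTES, 95.8 and 37.5 CPM in DMSO). On the higher side, Fgf13, an intracellular fibroblast growth factor homologue, stood at 68.5 and 140 CPM in BPTES and 0.00 and 11.6 CPM in DMSO, and without mixed barcodes at 5.99 and 184 CPM and at 0.00 and 21.9 CPM, which overlap. Grpel2, a mitochondrial import co-chaperone, stood at 138 and 126 CPM in BPTES and 59.9 and 56.4 CPM in DMSO, with a log2 fold change of 1.17 (SE 0.31), and of 1.10 without mixed barcodes. Sgk1, a kinase that raises sodium channel activity, stood at 71.2 and 107 CPM and at 29.9 and 31.5 CPM, with 1.48 (SE 0.40), and 1.70 without mixed barcodes. Tmem243 had 1.08 (SE 0.32), and 1.33 without mixed barcodes. Dgkb, Mpg and Fam57a had 1.72, 3.85 and 2.19, and could not be tested without mixed barcodes. Dgkb then had no UMI in any library, Mpg stood at 19.955 and 17.9 CPM in BPTES and 6.84 and 0.00 CPM in DMSO, and Fam57a at 27.9 and 40.4 CPM and at 6.84 and 9.37 CPM. Several genes of this higher side also had a higher mean level in another class. They were Fgf13 (T cells, 225 CPM), Sgk1 (endothelial cells, 338 CPM), Tmem243 (AT2 cells, 533 CPM) and Clu (mesothelial cells, 952 CPM). Dgkb and Mpg were highest in fibroblasts (139 and 22.6 CPM), and Grpel2 and Fam57a in members.

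**Figure D5:**
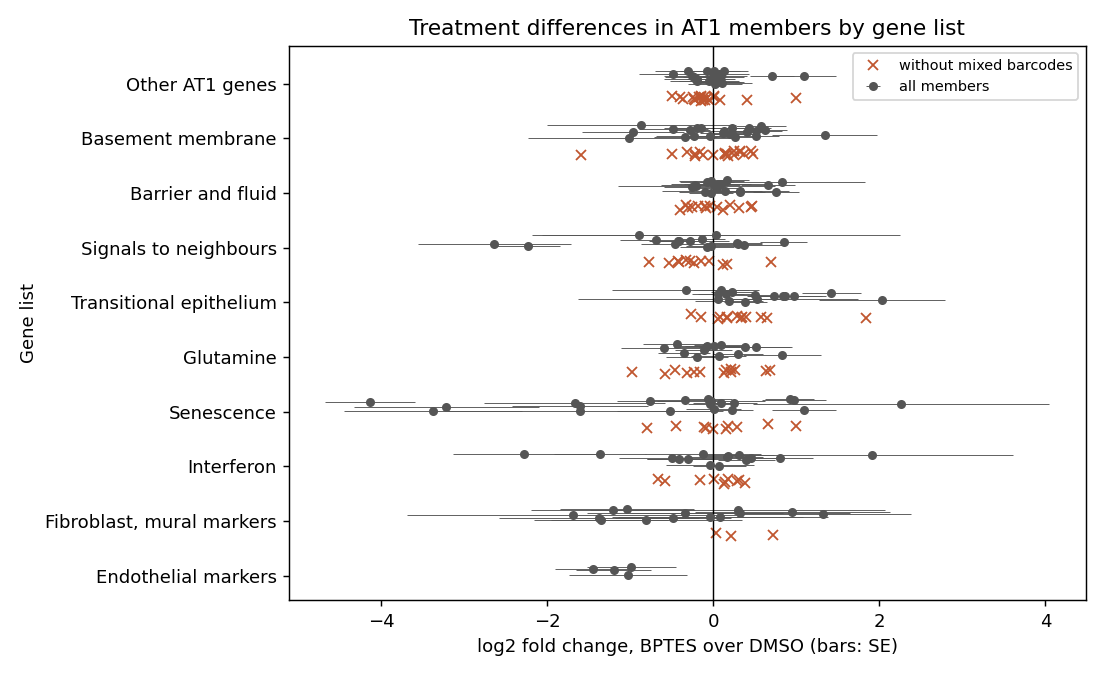
Log2 fold change of BPTES over DMSO for each tested gene of 10 lists, points with SE bars for all members and crosses without mixed barcodes. The transitional epithelium list has 15 of 16 points above 0, and the endothelial list has 4 points below 0 and no cross. The barrier list includes the rule gene Aqp5.

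The last question was whether AT1 members differed from AT2 cells in their response. In a model with both classes and the library as a block, none of 12183 genes was called for the difference of responses (percent called 0.00, edgeR's quasi-likelihood test with Benjamini-Hochberg adjustment), and 285 had an unadjusted p under 0.05. DESeq2 called 2, Gpm6a and Tmem108. Without DMSO replicate 1, which leaves 1 DMSO library, edgeR did call genes. Most of them had a lower log2 fold change of BPTES over DMSO in members than in AT2 cells. With all 4 libraries kept, edgeR called 1 gene with at least 4 of 5 markers, 5 without mixed barcodes and 3 without deep barcodes. With no filter on low counts it called 85. The absence of calls in the main fit thus depended on the members, the filter and the libraries used. Gpm6a, a membrane glycoprotein, stood at 415 and 326 CPM in BPTES and 419 and 187 CPM in DMSO members. In AT2 cells it stood at 0.369 and 0.187 CPM in BPTES and 8.63 and 9.94 CPM in DMSO. The difference of its log2 fold changes was 5.39 (SE 0.60, adjusted p 0.417 by edgeR), and it lay on the AT2 side. Tmem108 stood at 65.8, 98.2, 47.9 and 68.0 CPM in members and at 0.307, 0.561, 4.63 and 4.24 CPM in AT2 cells. Mesothelial cells were the class with the highest level of both outside the members, at 1322 and 146 CPM, and numbered 4 and 10 in BPTES and 109 and 54 in DMSO. Over 6 mesothelial markers, Gpm6a among them, AT2 cells had 16.3 and 19.4 CPM in BPTES, with 4 of the 6 at 0, and 53.3 and 31.3 CPM in DMSO, with none at 0. The part of mesothelial RNA in this difference was not tested. Popdc3 and Enpp2, also higher in members by this difference, had 2.47 and 1.96 with an adjusted p of 1.00 in edgeR. Enpp2 stood at 761 CPM in mesothelial cells and without mixed barcodes at 4.48 CPM in BPTES replicate 2 and 0.00 CPM in the other 3 member libraries. Nrgn, at 95.1 CPM in mesothelial cells, had a UMI level of 69.8 CPM in BPTES replicate 1 and at most 1.66 CPM in the other member libraries. On the lower side, Igfbp3, Tcf7l1 and Fchsd2 had -3.90, -2.38 and -1.71. Ntn1 and Emp1, also on that side, were highest in DMSO replicate 2 at 44.8 and 96.2 CPM and reached at most 2.81 CPM in BPTES. Igfbp2 had a log2 fold change of 1.09 in members and 1.09 in AT2 cells, where it stood at 0.842 to 3.31 CPM.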

How the data were processed

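Single-cell 3' RNA libraries (10x Chromium GEM-X, per the labels' protocols) were deposited as filtered matrices of UMI counts. The submitters' processing notes name Cell Ranger 8.0.1 and build mm10. The deposited counts are whole numbers with no normalisation. No batch is given in the labels. Values of 4 libraries were used, with 31054 features; groups came from the treatment label.

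Members and the classes they were compared with were chosen by marker rules in Python 3.11.15 (numpy 2.4.6, scipy 1.17.1, pandas 2.3.3). The members and gene lists were chosen with earlier results of these data known. No doublet caller was run; the excluding genes and the alternative without mixed barcodes stand in its place. Counts were summed per library and class and tested in edgeR 4.0.16 under R 4.3.3 (TMM, filterByExpr, quasi-likelihood test, two-sided, Benjamini-Hochberg over all genes tested, called under 0.05), with DESeq2 1.42.0 as alternative. TMM factors were 0.973 to 1.02. The scripts were tested on simulated counts. CPM is per 1000000 UMIs of the class. SE is on the log2 scale. The difference of responses was the class-by-treatment term of a model with library and class terms, in which the library terms take up the treatment. Shares were compared over libraries by exact permutation.

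Genes named with values were, by a rule: up to 6 members per main list with the highest level; Gls2, Glul, Cdkn2a and Cdkn1a; since fewer than 10 genes were called, the 8 per direction with the smallest unadjusted p whose groups do not overlap and whose mean is at least 10 CPM; the 5 per direction for the difference of responses; and the 15 genes with the highest ratio to the next class at 50 CPM or more. Others (Col4a1, Lamb3, Scnn1b, Tgfb2, Cldn7, Ndnf, Tnfrsf12a, Lmna, Cxcl12, Igfbp4, Igfbp5, Sfn, Krt8, Cldn4, Ankrd1, Cdkn2b and genes of the depth comparison) were named after their values were seen. Other lists tested, with no gene called, were ATF4 stress, interferon, MHC class I, immediate early and heat shock, circadian, glutathione, glycolysis and TCA cycle genes, with median log2 fold changes of -0.24, 0.07, -0.01, -0.06, 0.05, 0.08, 0.01 and -0.14, and without mixed barcodes of 0.21, 0.14, 0.01, -0.01, 0.46, -0.07, -0.15 and -0.05. Some genes that the rule selects are not reported here.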

Additional observations from a re-analysis of the deposited data

How the results depend on the processing

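For genes differing between BPTES and DMSO in AT1 members, edgeR called 0 genes with DESeq2 size factors, at most 5% mitochondrial UMIs or at least 4 of 5 markers. It also called 0 without mixed barcodes, without deep barcodes, and with members thinned to 1000 UMIs (added after seeing the data). Deep barcodes were those over 2 times the median of their class in their library. In these fits 11 to 236 genes had an unadjusted p under 0.05 by edgeR. Each library was also left out in turn, which leaves 1 library in a group. With no filter on low counts 165 were called (29 higher, 136 lower), Igfbp3, Ly6a and Igfbp2 among them. Leaving out mixed barcodes and also 1 library (added after seeing the data) called 7 without BPTES replicate 1, 3 without BPTES replicate 2, 4 without DMSO replicate 1 and 2 without DMSO replicate 2. Sftpc, set by 1 member of DMSO replicate 1, was called in 3 of these 4. For the difference from AT2 cells, with 0 called, DESeq2 called 2, no filter 85, at least 4 of 5 markers 1 (Gpm6a), no mixed barcodes 5 (S100a6, Prickle2, Fosb, Gm26870, Prkg1) and no deep barcodes 3. Leaving out 1 library gave 0 to 349 calls, the 349 (30 higher, 319 lower) without DMSO replicate 1 and 5 without DMSO replicate 2. The lone library of a group is then assumed to vary like the other group, and the cause of these calls was not tested. The labels do not say that a number pairs libraries. Over 3913 genes same-numbered libraries deviated with a correlation of 0.31. With the replicate block 0 genes were called in members, and the log2 ratios of the share and of AT1 to AT2 cells were 0.69 (pairs 1.49 and -0.10) and -0.63 (pairs -0.11 and -1.15); without the library block the difference of responses had 0 calls. The share's log2 ratio was 0.62 to 0.80 and that of AT1 to AT2 cells -0.73 to -0.47 under the other settings, and without each library 0.24 to 1.14 and -1.03 to -0.24. Of 1105 alternative values for 72 named genes, 57 both changed direction and moved by more than their error, and 10 were called. Values that moved by more than their error but kept their direction, as for Clu and Sned1 without mixed barcodes, are not among the 57. Of the genes selected for naming, the direction turned for 12 of 58 without mixed barcodes and for 10 of 41 with members thinned to 1000 UMIs, Itgb1, Krt19 and Lgals3 among the latter. Depth limits precision most in DMSO replicate 1, with 21 members.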
